A study of Mus musculus with 6 samples.

Results

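The 9 genes described here are the Hedgehog ligand Shh, its receptor Ptch1, the co-receptors Gas1 and Cdon, the transducer Smo, the transcription factors Gli1, Gli2 and Gli3, and the ligand-binding inhibitor Hhip. They were taken by gene symbol from a table of 32285 genes, and each symbol named 1 row. The table holds single-cell RNA counts from the cardiogenic region of wild type C57BL/6 mouse embryos at E10.5 (mid-gestation, days counted from the plug). The labels give 3 samples from mothers pretreated with vehicle, whose blood glucose was normal, and 3 from mothers pretreated with streptozotocin and hyperglycaemic, a toxin of insulin-producing cells that gives a model of maternal diabetes. All fathers had normal blood glucose. Per the labels, ectoderm, endoderm and mesoderm that is not cardiac came with the dissected tissue. The number of embryos in a sample is not given in the labels, whose description field names a chromatin assay although the titles and the library kit name RNA.

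The deposited matrix holds 6 libraries, told apart by a number at the end of each cell barcode, and nothing in the files pairs that number with a sample. Streptozotocin was therefore not compared with vehicle, and the libraries are given one by one, without a group and without a test. A barcode was kept as a cell with 2500 or more detected genes and no more than 10% of its molecules from mitochondrial genes, which 35962 of 53362 met, between 4903 and 7136 in a library, with library medians of 30533 to 35634 molecules. A molecule is counted once through its unique molecular identifier (UMI). Of the cells that passed, 2890 (8.04%) carried a barcode sequence also found in another library.

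In the Hedgehog pathway, secreted ligand binds Ptch1 and ends its inhibition of Smo, and Smo at the primary cilium then lets the Gli factors activate target genes. Ptch1, Gli1 and Hhip are themselves transcribed in response to the signal, so they mark responding cells, while Gas1 and Cdon help ligand to bind and are known to be turned down where the signal is strong. In the embryonic pharynx and foregut, Shh is known as a product of the endoderm that acts on the mesoderm beneath it, including the second heart field, the source of the outflow tract and of the atrial septum.

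Cells were sorted into classes by marker genes that include none of the 9. A cell entered a class when it had at least 2 UMIs of a set number of that class's markers, or at least 5 UMIs for Epcam and the cardiomyocyte markers, and cells that met the conditions of several classes (1003) were set aside. This placed 21925 cells in named gates and 2093 in a class of other Epcam-positive epithelium, while 10941 cells met no gate. The 18 classes with at least 50 cells were compared. Markers kept out of the gates were at least 2-fold higher than in all other cells for 5 of 5 in the endoderm, 3 of 4 in the surface ectoderm, 4 of 4 in cardiomyocytes, 4 of 4 in the endothelium and 3 of 3 in the epicardium. The endoderm check markers (Spint2, Elf3, Cldn4, Krt8 and Krt18) are epithelial genes, and the gate itself asks for Epcam. This check therefore cannot tell endoderm from other epithelium, and the name endoderm rests on the transcription factors in the gate. The anterior gate, which asks for Tbx1 or Fgf10 with other genes of the anterior heart field and pharyngeal mesoderm, reached 2 of 3. The posterior gate, built on Tbx5, Wnt2, Tbx4, Wnt2b and Gata6, markers of posterior heart field and splanchnic mesoderm, reached 3 of 4. Gates meant for paraxial mesoderm (0 of 3) and smooth muscle (1 of 3) did not hold their check markers, and the gate meant for branchiomeric muscle held many cells of another kind, as described further on. The gates for Hox-positive arch crest mesenchyme and for notochord or floor plate held 1 of 2 check markers each, so their names rest mostly on the gates' own genes. The gates meant for paraxial mesoderm, smooth muscle and branchiomeric muscle are therefore called by their genes: Meox1/Tcf15/Pax3 mesoderm, Acta2/Tagln mesenchyme and Msc/Myf5 mesoderm. The form of the gates was changed once after Shh levels had been seen, and the values under the first form stand with the limits at the end.

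To show the DNA next to the start of 2 genes that respond to the signal, the 250 bases before the RefSeq start of Ptch1 (chr13:63565736-63565985, minus strand, inside an intron of longer GENCODE transcripts of Ptch1) and of Hhip (chr8:80058009-80058258, minus strand, upstream of the gene) are printed from the GRCm38.p6 build, 5′ to 3′.
Ptch1: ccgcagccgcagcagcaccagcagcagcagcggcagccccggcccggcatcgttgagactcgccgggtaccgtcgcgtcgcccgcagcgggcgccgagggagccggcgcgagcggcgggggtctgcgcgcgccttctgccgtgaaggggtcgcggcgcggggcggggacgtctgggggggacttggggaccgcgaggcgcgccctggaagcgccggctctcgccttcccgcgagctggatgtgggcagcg
Hhip: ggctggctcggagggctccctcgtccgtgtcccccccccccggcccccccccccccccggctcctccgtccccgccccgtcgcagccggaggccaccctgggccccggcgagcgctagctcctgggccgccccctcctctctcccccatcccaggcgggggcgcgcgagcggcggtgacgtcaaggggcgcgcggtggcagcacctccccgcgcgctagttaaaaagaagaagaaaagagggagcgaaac
They are wholly in lower case because neither holds the 9-base Gli motif GACCACCCA on either strand, nor a form that differs from it at 1 base. Of the 9 genes, 7 had such a window (all but Shh and Gli1), and 0 of the 7 held the motif or such a form. Over all 32851 windows of the same length, 0.225% held the motif and 5.79% held it with at most 1 difference. No match says only that these letters are not in these windows.

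Shh (ENSMUSG00000002633, chromosome 5, 28456815 to 28467256, minus strand, GRCm38) was a transcript of the pharyngeal and foregut epithelium. Its level in the 2961 endoderm-gated cells was 69.5, 72.8, 77.0, 79.9, 88.0 and 80.8 CPM (UMIs of the gene scaled to 1e+06 UMIs in all) in libraries 1 to 6. All 6 libraries lay close together, and summed over libraries the level was 78.9 CPM (95% Poisson interval 77.2 to 80.7, counting error only, as for every interval here). In the other Epcam-positive epithelium Shh was at 22.7 CPM, with libraries from 13.2 to 31.2, and in the surface ectoderm at 3.31 CPM, with libraries from 1.70 to 4.71. The endoderm lay above the other epithelium, and that above the surface ectoderm, in 6 of 6 libraries, and none of these library ranges overlapped. Asking for 1 more marker in each gate left Shh in the surface ectoderm at 0.370 CPM, and the first form of the gates put it at 66.9 CPM in the endoderm and 53.2 CPM in the other epithelium, much closer together. In the other 15 classes Shh was at 0.269 CPM or less, with 0 UMIs in 5 of them. Erythroid cells, which should lack the gene, held 0.0746 CPM. After every cell was thinned to 8000 UMIs, 33.6% of endoderm-gated and 0% of erythroid cells (0 of 1411) had a Shh UMI.

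Of 10066 Shh UMIs in passing cells, 78.4% (exact binomial interval 77.6 to 79.2%) lay in the endoderm gate, which held 7.63% of all UMIs. Under the first form of the gates, changed after Shh levels were seen, the share was 41.6%, and with 1 more marker asked for it was 60.2%. The other Epcam-positive epithelium added 15.1%, and all Epcam-positive cells together held 95%. Some Shh transcript lay in cells under the Epcam limit. In 54 cells with fewer than 5 Epcam UMIs, at least 2 Shh UMIs were counted, with Foxa2 at 114 CPM and Ntn1, a guidance cue of the floor plate, at 265 CPM. In the 29580 Epcam-low cells with no Shh UMI, Foxa2 was at 0.122 and Ntn1 at 5.84 CPM. Ntn1 was found in 25 of the 54 cells, which also held Sox2 at 180 CPM. Endoderm-gated cells with Foxa1 or Foxa2 but neither Nkx2-1 nor Pax1 held Foxa2 at 78.7 and Sox2 at 196 CPM. Whether the 54 cells include endoderm with little Epcam was not tested. Their own Gli1 was at 1.85 CPM (2 UMIs) and Hhip at 4.62 CPM (5 UMIs), against 6.07 and 14.8 CPM in the cells without Shh, while Ptch1 stood at 89.7 CPM (97 UMIs) against 90.3 CPM. Only 9 cells met the gate for notochord or floor plate, 3 in library 4 and 6 in library 5, too few to rank, and in them Shh was at 607 CPM while Gli1 and Hhip had 0 UMIs, which allows up to 17.2 CPM each.

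**Figure D1:**
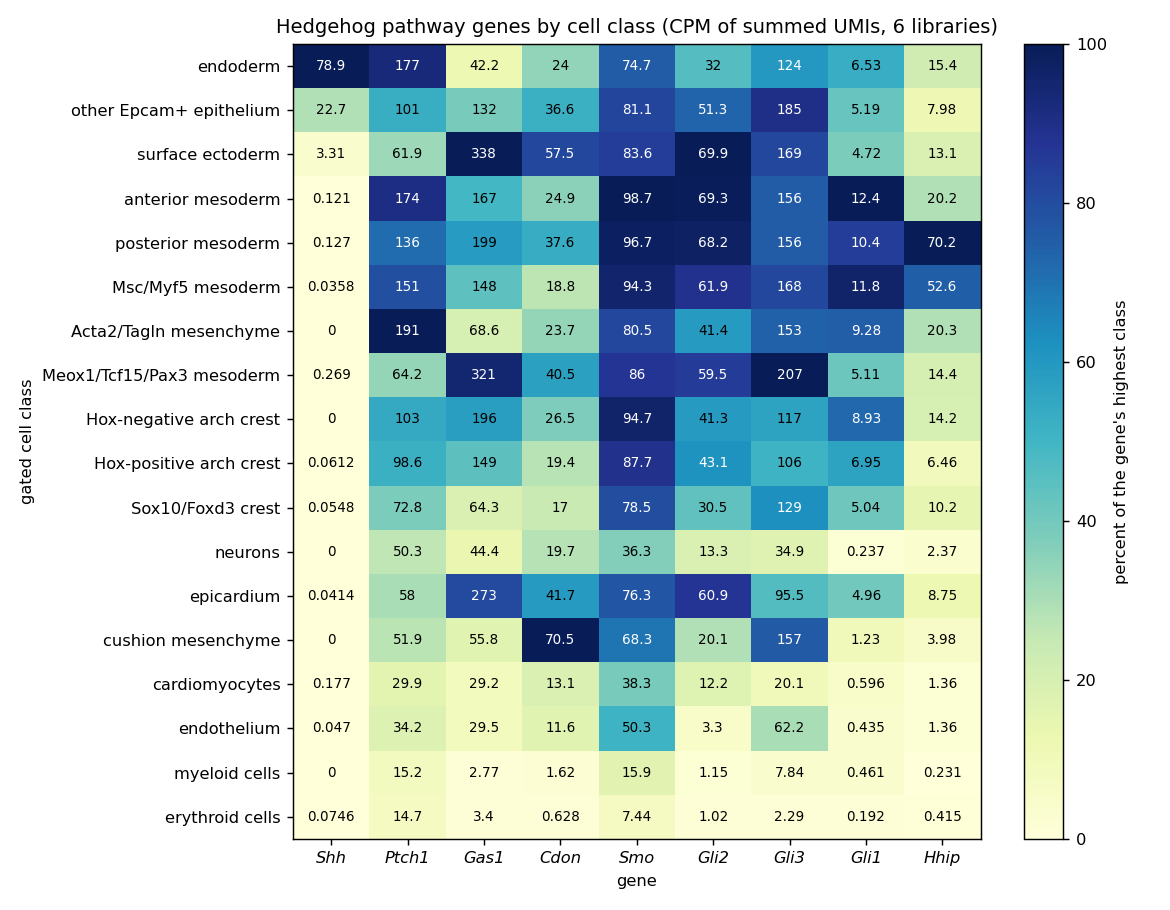
Levels of the 9 genes (columns) in the 18 cell classes (rows), in CPM of UMIs summed over 6 libraries; colour gives each value as a percent of the gene's highest class. Shh stands in the epithelial rows at the top. Ptch1 is highest in the Acta2/Tagln mesenchyme, endoderm and anterior mesoderm rows, and Gli1 and Hhip are highest in mesoderm rows. Gli1 in the arch crest rows (8.93 and 6.95 CPM) is no lower than in the endoderm row (6.53 CPM). The rows for cardiomyocytes, endothelium and blood cells are pale for most genes.

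Within the endoderm gate Shh differed widely between cells told apart by their transcription factors. In the 509 cells with Nkx2-1, a factor of the thyroid and of the ventral foregut that gives the lung and trachea, Shh was at 102, 189, 125, 225, 199 and 235 CPM in libraries 1 to 6. Libraries 1 and 3 were lowest there, and the level over all libraries was 192 CPM (185 to 200). In 1030 cells with Foxa1 or Foxa2 but neither Nkx2-1 nor Pax1, it was 114 CPM, with libraries from 93.3 to 144. Shh there was above the Nkx2-1 cells in libraries 1 (144 against 102 CPM) and 3 (136 against 125 CPM). It was below them in libraries 2, 4, 5 and 6. In 1002 cells with Pax1, a factor of the pharyngeal pouches, and none of the others, it was 12.1 CPM, with libraries from 7.34 to 17.0. The 228 cells with both Pax1 and a Foxa gene lay between, at 43.1 CPM.

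The receptor did not follow the ligand among these cells. Ptch1 was at 159 CPM in the Nkx2-1 cells, 191 CPM in the Foxa cells, 151 CPM in the Pax1 cells and 234 CPM in the cells with Pax1 and Foxa. Its library ranges in the Nkx2-1 cells (126 to 241 CPM) and the Pax1 cells (120 to 192 CPM), the extremes for Shh summed over libraries, overlapped. Gli1 was lowest, at 3.53 CPM, in the Nkx2-1 cells, where Shh summed over libraries was highest. It was highest, at 9.67 CPM, in the cells with Pax1 and Foxa. The library ranges of these sets (1.86 to 7.85 and 5.54 to 14.8 CPM) overlapped, and in library 1 the Nkx2-1 cells (7.85 CPM) lay above the Foxa cells (5.51 CPM). Hhip was at 32.5 CPM in the Nkx2-1 cells and at 4.65 CPM in the Pax1 cells, and these library ranges (20.3 to 65.1 and 2.07 to 6.53) did not overlap. Gas1 ran the other way, at 23.4 CPM in the Nkx2-1 cells and 60.8 CPM in the Pax1 cells, with library ranges (17.8 to 33.0 and 49.1 to 68.9) that did not overlap either.

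**Figure D2:**
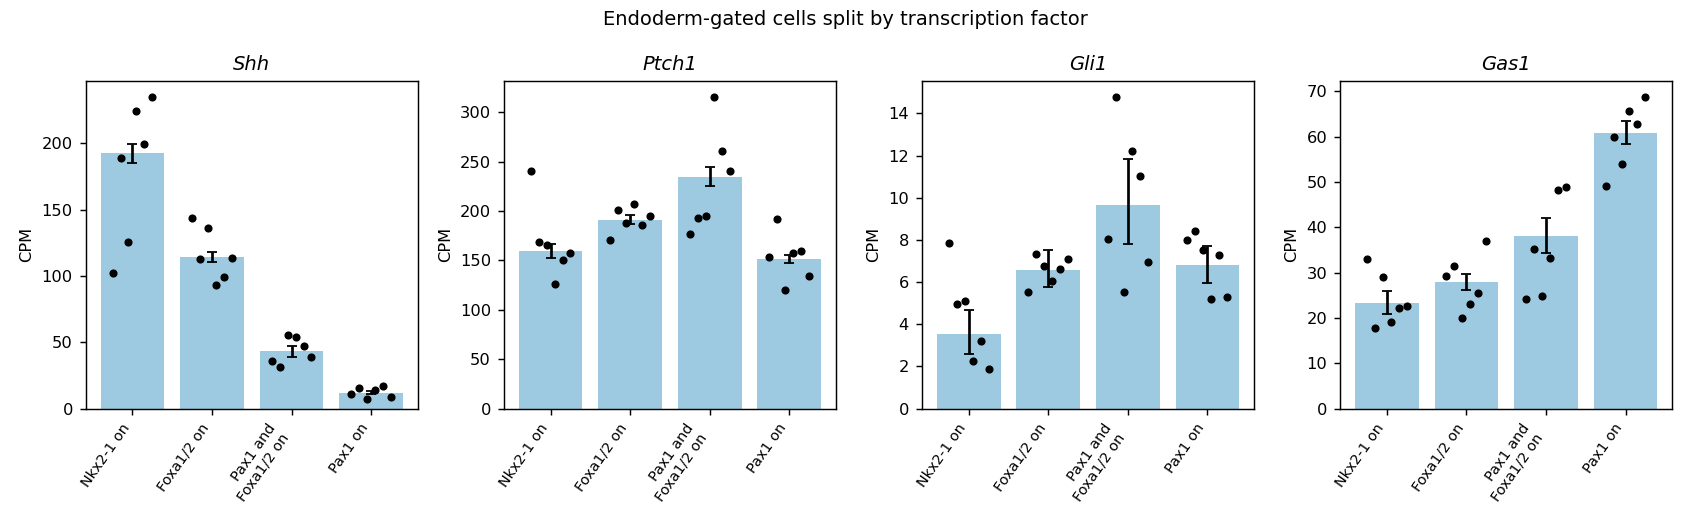
CPM of Shh, Ptch1, Gli1 and Gas1 in 4 sets of endoderm-gated cells told apart by transcription factor; bars are all libraries summed with 95% Poisson intervals and points are the 6 libraries. Shh is at 192 CPM in Nkx2-1 cells and 12.1 CPM in Pax1 cells, Ptch1 stays between 151 and 234 CPM, and Gas1 is lowest in the Nkx2-1 cells.

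Endoderm cells with and without a Shh UMI were then set side by side at one depth, each thinned to 8000 UMIs, with 992 positive and 1961 negative cells. The sets hold different kinds of endoderm cell, since a Shh UMI was found after thinning in 56.2% of the Nkx2-1 cells and 50.6% of the Foxa cells but 7.19% of the Pax1 cells. The Pax1 cells also held more Gas1 (60.8 CPM against 23.4 CPM in the Nkx2-1 and 27.9 CPM in the Foxa cells) and more Gli2 (42.1 against 24.2 and 23.1 CPM), and the part of this makeup in the differences between the sets was not tested. Gas1 was at 22.1, 18.6, 18.0, 14.5, 16.4 and 19.5 CPM in the positive cells of libraries 1 to 6 and at 44.2, 51.4, 44.3, 49.1, 47.7 and 49.2 CPM in the negative cells. The sets did not overlap, and the positive cells held 0.377 times the Gas1 of the negative. Gli2, the main activator of the pathway among the Gli factors, was at 16.0 against 38.9 CPM, 0.412 times, and lower in 6 of 6 libraries. Of 7 members that could be called, meaning at least 10 CPM in either set, these 2 were at least 2-fold lower and 0 at least 2-fold higher. Over the 9339 genes, 1.87% were at least 2-fold lower and 1.19% higher.

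The responding genes differed little between the same sets. Ptch1 was at 187 CPM in the Shh-positive and 173 CPM in the Shh-negative cells, a ratio of 1.08, higher in 5 of 6 libraries. Hhip was at 19.7 against 17.3 CPM and Gli1 at 5.80 against 5.23 CPM, with each gene's counting intervals overlapping between the sets. Cdon was 0.781 times as high in positive cells and lower in 6 of 6 libraries. Foxa2, a factor of endoderm and floor plate, was 2.98-fold and Osr1, a described target in foregut mesoderm, 3.60-fold higher in the positive cells, in 6 of 6 libraries each. Of 21 other pathway genes called, Osr1 was the 1 gene at least 2-fold higher and Gpc5 the 1 gene lower. The 10 genes with the highest folds and one direction in every library were Pcdh8 (8.90-fold), Mgat4c, Lama3, Apela, Stxbp5l, Onecut1, Fam183b, Ttr, Rfx6 and Cdh18 (3.79-fold). Pcdh8 encodes a protocadherin, Apela a peptide hormone, and Onecut1 and Rfx6 transcription factors of foregut endoderm. At the other end were Fgf15 (0.0113 times), Ctxn3, Cox6a2, Lrrtm4 and Cpne4 (0.0390 times).

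The genes most like Shh across the 18 classes, by Pearson correlation of log2(CPM + 1) among 11747 genes, were 9030622O22Rik (r = 0.991), Tmprss2 (0.991), Foxe1 (0.989), Gm12446 (0.987) and 9530036O11Rik (0.978). The classes share libraries and depth, and 15 of the 18 points sit near 0 for Shh, so r mostly restates that each of these genes is epithelial. Foxe1 is a factor of the thyroid and palate. The long noncoding gene 9030622O22Rik lies 2673 bases from Foxa2 on chromosome 2. The gene 9530036O11Rik is annotated antisense to Shh and overlaps it over 8983 bases. Since the sources used here do not state that counting used strand, reads of Shh and 9530036O11Rik cannot be fully told apart. The antisense gene reached 21.4 CPM in the endoderm against 78.9 CPM for Shh, and it was 2.68-fold higher in Shh-positive cells.

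Ptch1 (ENSMUSG00000021466, chromosome 13, 63508328 to 63573598), receptor and target at once, was high in the endoderm, in mesoderm gates and in the Acta2/Tagln mesenchyme. It was highest in the 260 Acta2/Tagln mesenchyme cells at 191 CPM (181 to 201), where libraries 1, 2, 4, 5 and 6 held 228, 176, 184, 168 and 224 CPM and library 3 had too few cells. The endoderm followed at 177 CPM, with libraries from 157 to 196, and the anterior gate at 174 CPM, with libraries from 142 to 193. The library ranges of these 3 classes overlapped, and the first lay above the second in 2 of 5 libraries. The Msc/Myf5 mesoderm (151 CPM) and the posterior gate (136 CPM) came next, but neither was even over libraries. In the Msc/Myf5 mesoderm libraries 1 to 3 held 94.7, 82.2 and 98.2 CPM and libraries 4 to 6 held 186, 202 and 191 CPM. The Hox-negative and Hox-positive arch crest mesenchyme followed at 103 and 98.6 CPM, and the posterior gate lay above the former in 4 of 6 libraries. Ptch1 stood at 29.9 CPM in cardiomyocytes, 34.2 CPM in the endothelium and 14.7 CPM in erythroid cells. The myeloid cells held 15.2 CPM.

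Gli1 (ENSMUSG00000025407, chromosome 10, 127329882 to 127341974), the factor most dependent on the signal, was highest in 3 mesoderm gates. In the anterior gate it was at 14.4, 12.3, 11.1, 12.7, 11.7 and 11.9 CPM in libraries 1 to 6, or 12.4 CPM in all (11.6 to 13.1). The Msc/Myf5 mesoderm (11.8 CPM), the posterior gate (10.4 CPM), the Acta2/Tagln mesenchyme (9.28 CPM) and the Hox-negative arch crest mesenchyme (8.93 CPM) followed, and each overlapped the next in its counting interval and its library range. The endoderm held 6.53 CPM, with libraries from 5.46 to 8.19, all below those of the anterior gate. Cardiomyocytes (0.596 CPM) and endothelium (0.435 CPM) were near the 0.192 CPM of erythroid cells. After thinning, 9.34% of anterior, 4.13% of endoderm-gated and 0.0709% of erythroid cells had a Gli1 UMI.

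Hhip (ENSMUSG00000064325, chromosome 8, 79965851 to 80058006), a membrane protein that binds and traps ligand, was the most class-restricted of the 3 targets. Its highest class stood 7.39 times above its median class, against 2.43 times for Gli1 and 2.78 times for Ptch1. It was highest in the posterior gate at 70.2 CPM (67.6 to 72.9), with libraries from 6.55 to 101 CPM, and in the Msc/Myf5 mesoderm at 52.6 CPM, which became 31.4 CPM when 1 more marker was asked for. The anterior gate, with the most Gli1, held 20.2 CPM of Hhip, with libraries from 13.9 to 28.9. The posterior gate lay above the anterior in libraries 3 to 6, but in libraries 1 and 2 the order turned, with 20.5 and 6.55 CPM in the posterior against 28.9 and 21.6 CPM in the anterior gate. Endoderm held 15.4 CPM and Hox-positive arch crest mesenchyme 6.46 CPM.

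**Figure D3:**
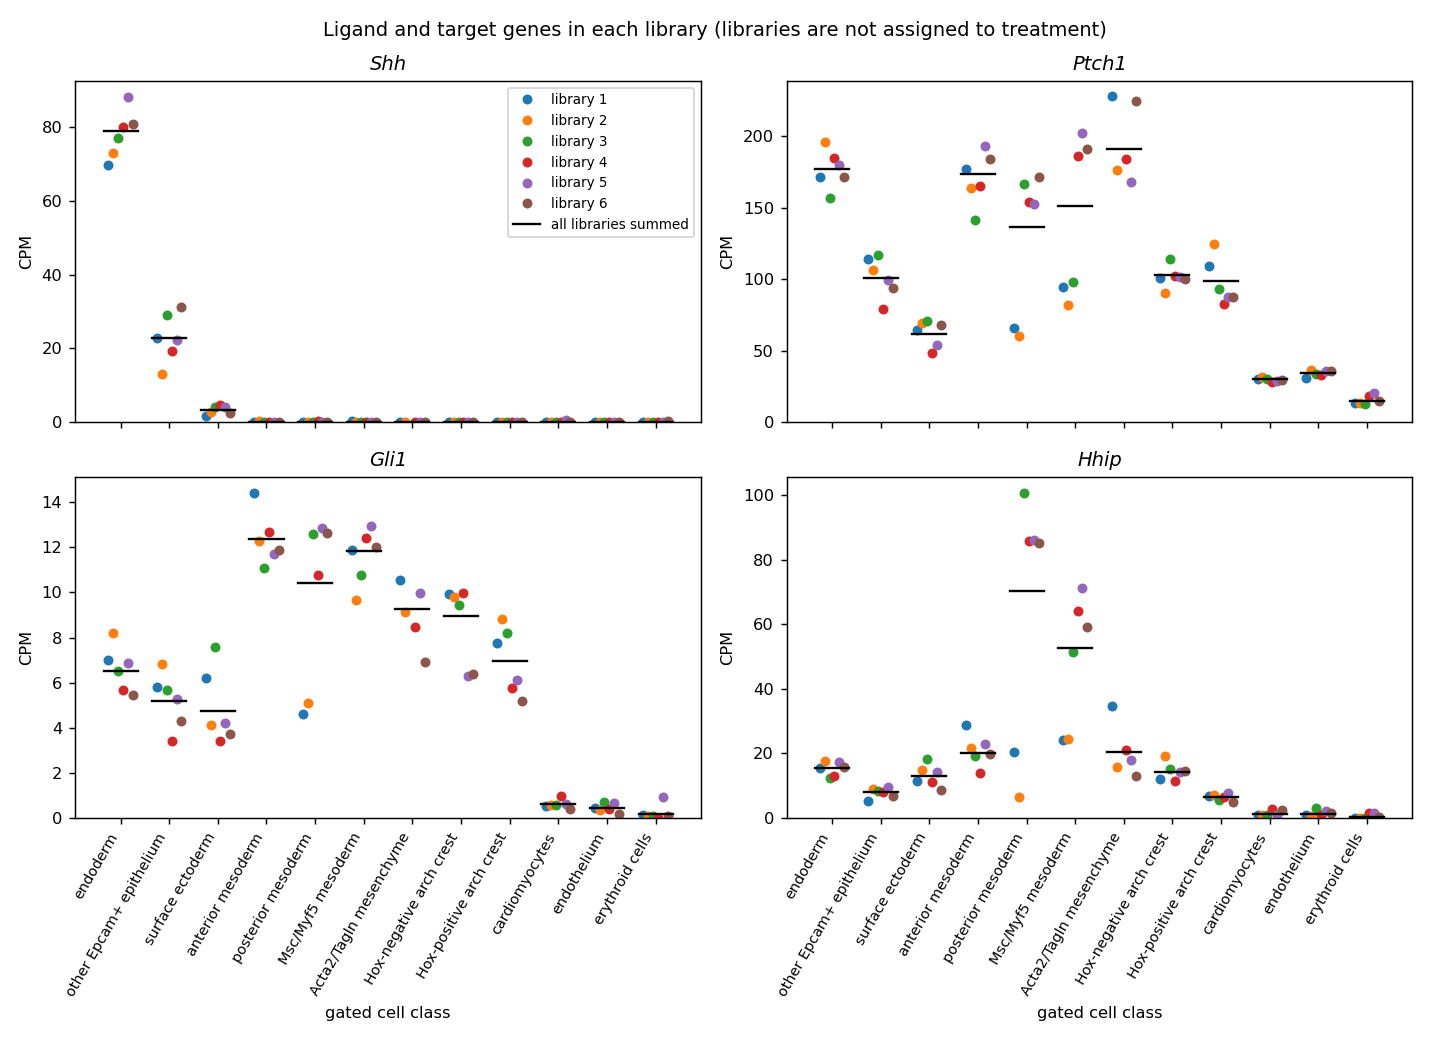
CPM of Shh, Ptch1, Gli1 and Hhip in 12 of the 18 classes; each coloured point is a library with at least 20 cells and the line is all libraries summed. Shh is near 0 outside the epithelial classes, and in the posterior gate libraries 1 and 2 lie below the other libraries for Ptch1, Gli1 and Hhip.

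In the posterior gate libraries 1 and 2 stood apart from the other 4. Hhip was at 20.5 and 6.55 CPM there, against 101, 85.9, 86.2 and 85.3 CPM in libraries 3 to 6. Ptch1 was at 66.2 and 59.97 against 166, 154, 153 and 171 CPM, and Gli1 at 4.61 and 5.12 against 12.6, 10.8, 12.8 and 12.6 CPM. Without libraries 1 and 2 the 3 genes stood at 88.7, 160 and 12.2 CPM. In the same cells the co-receptors were highest in libraries 1 and 2, with Gas1 at 263 and 270 CPM against 133 to 201, and Cdon at 48.4 and 61.2 CPM against 28.5 to 33.9. Smo, Gli2 and Gli3 did not separate these libraries.

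The cells in the gate differed between the libraries as well. Foxf1, a forkhead factor of splanchnic mesoderm and a described Hedgehog target, was at 41.2 and 22.1 CPM in libraries 1 and 2 against 183 to 268 CPM in the rest, and Osr1 at 39.8 and 8.60 against 119 to 139 CPM. Tbx5, one of the gate's own markers, was at 81.2 and 64.1 against 126 to 156 CPM, while Wnt2, another, was at 210 and 147 against 120 to 175 CPM and so did not separate them. After thinning, 15.2 and 9.33% of the gated cells in libraries 1 and 2 had a Foxf1 UMI, against 52.6, 53.5, 58.5 and 50.9% in libraries 3 to 6. In erythroid cells thinned the same way, 1.06% had one. The part of these differences in cell makeup in the library difference of the targets was not tested.

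Splitting the gate by Foxf1, itself a described target and chosen after these values were seen, describes how the targets go together and is no test. It set 558 positive against 701 negative cells, thinned to one depth. Ptch1 in the Foxf1-positive cells was at 277, 269, 266, 249 and 282 CPM in libraries 1, 3, 4, 5 and 6, library 2 having only 14 such cells, and in the negative cells at 33.2, 52.4, 75.6, 40.2, 42.9 and 52.0 CPM in libraries 1 to 6. Library 1 lay within the range of libraries 3 to 6 in the positive cells and below each of them in the negative cells. Hhip in the positive cells was at 81.5 CPM in library 1, still below the 163 to 169 CPM of libraries 3 to 6. Over all libraries Hhip was at 159 against 14.4 CPM, 10.98-fold higher in Foxf1-positive cells, Gli1 at 19.5 against 3.03 CPM (6.43-fold) and Ptch1 at 263 against 47.8 CPM (5.50-fold). Without thinning the log2 fold of Hhip was 5.59 in place of 3.46.

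The co-receptors ran opposite to the targets. Gas1 was at 80.9 CPM in Foxf1-positive and 287 CPM in Foxf1-negative posterior cells, 0.282 times, and Cdon at 16.8 against 54.2 CPM, 0.310 times. All 5 directions held in 6 of 6 libraries, library 2 with its 14 positive cells included. Of 8 members called, 3 were at least 2-fold higher and 2 lower, where 3.73 and 3.10% of 9095 genes were. Smo (1.07-fold), Gli2 (0.793 times) and Gli3 (0.882 times) stayed within 2-fold. Among the other pathway genes, Foxl1, Osr1, Foxf2 and Foxd1 were at least 2-fold higher, and Scube1 and Boc, a co-receptor related to Cdon, at least 2-fold lower.

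**Figure D4:**
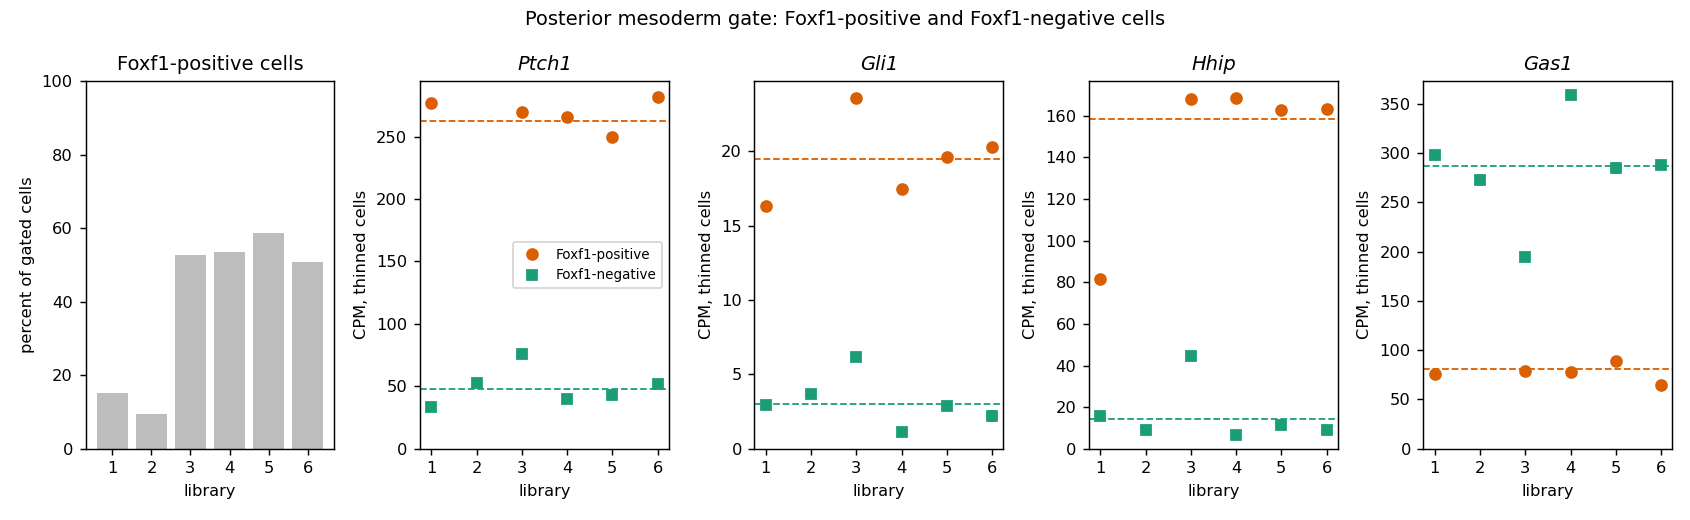
Posterior gate, cells thinned to 8000 UMIs: percent of cells with a Foxf1 UMI in each library (bars), and CPM of Ptch1, Gli1, Hhip and Gas1 in Foxf1-positive (circles) and Foxf1-negative (squares) cells, each library with at least 20 cells; dashed lines are all libraries. The 2 sets do not overlap for any of the 4 genes, and libraries 1 and 2 hold the fewest Foxf1-positive cells.

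The same split in the anterior gate gave the same directions with smaller folds. In 596 Foxf1-positive against 2305 negative cells, Hhip was 2.94-fold and Ptch1 2.65-fold higher and Gas1 was 0.321 times as high, in 6 of 6 libraries each, and Gli1 was 1.79-fold higher in 5 of 6. Of 8 members called, 2 were at least 2-fold higher and 1 lower, beside 1.13 and 1.66% of 9094 genes. Ptch1 in the positive cells ran from 285 to 413 CPM over libraries, above every library of the negative cells (116 to 148 CPM). Between 17.5 and 25.9% of the cells of each library were Foxf1-positive here, with 21.4 and 17.5% in libraries 1 and 2, so this share did not set libraries 1 and 2 apart here. Other genes of this gate did, with Gata6 at 46.8 and 42.8 CPM in libraries 1 and 2 against 24.2 to 32.3 CPM in the rest, and Wnt2 at 4.19 and 4.62 against 6.88 to 14.5 CPM.

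The Msc/Myf5 mesoderm was a mixture. Its Foxf1-positive cells numbered 0 of 140 and 2 of 75 in libraries 1 and 2, where the 0 allows up to 2.14%, and made up 33.3 to 61.4% of libraries 3 to 6. Hhip in the whole gate was at 24.0, 24.6, 51.4, 64.3, 71.1 and 59.0 CPM in libraries 1 to 6. Among its Foxf1-positive cells Ptch1 was 3.58-fold, Hhip 4.25-fold and Gli1 2.09-fold higher than in the rest, 3 of 8 members called at least 2-fold higher and 0 lower, beside 5.39 and 4.86% of 9194 genes. Gas1 was 0.551 times as high. The positive cells come almost wholly from libraries 3 to 6, while the negative cells come from all 6. Within each of libraries 3 to 6 the positive cells held more Ptch1, at 253 to 357 CPM against 53.0 to 89.0 CPM in the negative cells.

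Cells with and without a Gli1 UMI were compared in the anterior gate, where Gli1 was highest, with 271 positive and 2630 negative cells after thinning. Ptch1 was at 180, 225, 143, 269, 319 and 277 CPM in the positive cells of libraries 1 to 6 and at 167, 168, 162, 152, 188 and 179 CPM in the negative cells. It was higher in 5 of 6 libraries, library 3 with 14 positive cells being the exception, and 1.49-fold higher over all. Hhip was 1.62-fold higher in 5 of 6 libraries, and Foxf1 and Osr1 were 1.77-fold and 1.78-fold higher in as many. Gas1 was lower in 6 of 6 libraries, at 99.2 against 170 CPM. Of 7 members called, 0 passed 2-fold in either direction, where 0.285% of 9130 genes were at least 2-fold higher and 0.241% lower, and of 26 other pathway genes 0 passed. The 26 and 22 genes behind these shares became 46 and 47 with 1 more marker asked for, and 12 and 14 without thinning. A negative cell may still express Gli1, since at this depth most cells show no UMI of a gene near 12 CPM.

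The 10 genes with the highest folds and one direction in every library were Lrrtm4 (2.97-fold), Angptl1, Stk32a, Zmat4, 1700018A04Rik, Pld5, Rspo2, Fat4, Rccd1 and Apba3. Rspo2 encodes a secreted enhancer of Wnt signalling. The 5 lowest were Dkk1 (0.167 times), which encodes a secreted Wnt inhibitor, Gm14226, Epha3, Tbx2 (0.322 times) and Hoxd3. Lrrtm4, a synaptic adhesion gene, was thus among the highest here and among the lowest in Shh-positive endoderm cells.

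In the posterior gate the 93 Gli1-positive cells held 2.32-fold more Ptch1 and 2.01-fold more Hhip, in 6 of 6 libraries each, though libraries 1 and 2 had only 5 and 4 such cells. Gas1 was at 88.7 against 204 CPM, lower in 5 of 6 libraries, and Cdon at 18.8 against 39.1 CPM, from 14 UMIs in the positive cells. Of 7 members called, 2 were at least 2-fold higher and 2 lower, beside 2.08 and 2.11% of 9190 genes. The 191 genes behind the 2.08% became 287, 310 and 343 without library 3, 4 or 5, and 90 without thinning, and the 194 behind the 2.11% became 101 without thinning and 322 with 1 more marker asked for. In the endoderm the 122 Gli1-positive cells held 2.20-fold more Hhip (5 of 6 libraries) and 1.67-fold more Ptch1 (6 of 6), and Gas1 was 0.532 times as high, with 1 of 8 members at least 2-fold higher and 0 lower, beside 0.727 and 0.970% of 9486 genes. In the Msc/Myf5 mesoderm (84 positive cells) Ptch1 was 1.86-fold higher in 6 of 6 libraries, with 0 of 7 members past 2-fold either way, beside 2.1 and 2.12% of 9180 genes. In Hox-positive arch crest mesenchyme (147 positive cells) Ptch1 was 1.76-fold higher in 5 of 6, with 0 of 6 members past 2-fold, beside 0.677 and 0.525% of 8571 genes. In Hox-negative arch crest mesenchyme (54 positive cells) Hhip was 2.89-fold higher in 6 of 6, the 1 member of 7 past 2-fold, beside 3.98 and 2.47% of 8537 genes, while Ptch1 was higher in 3 of 6 libraries.

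**Figure D5:**
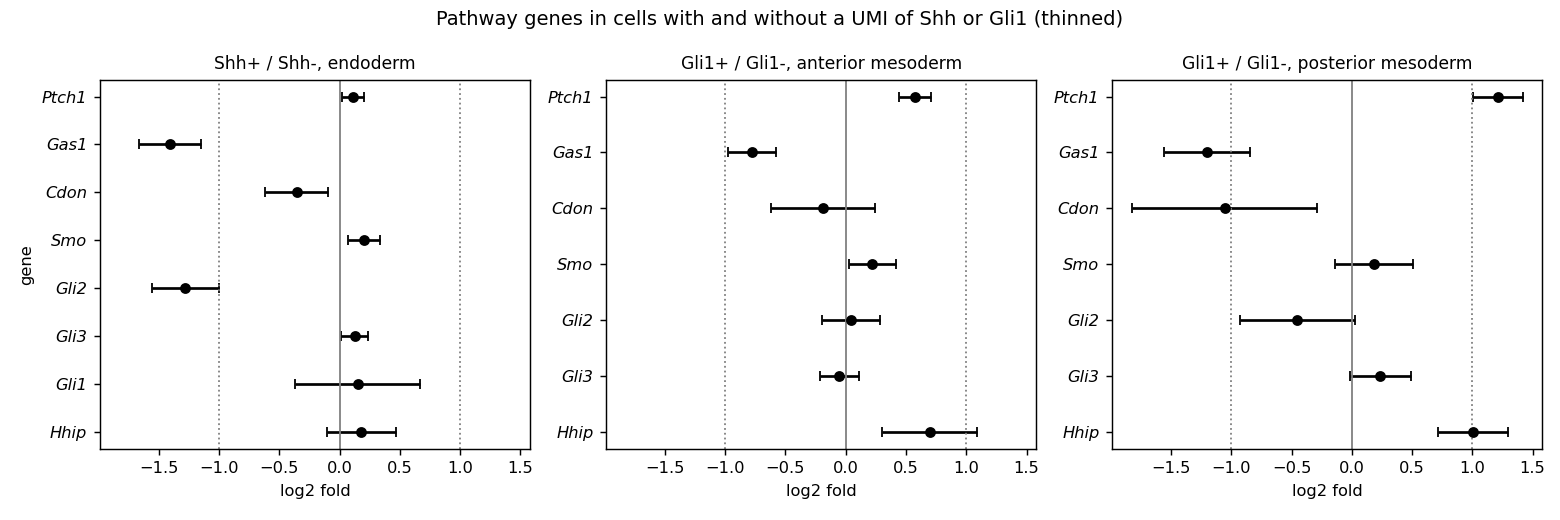
Log2 fold of the 9 genes, without the one that defines the split and Shh in the Gli1 panels, in Shh-positive against Shh-negative endoderm cells and in Gli1-positive against Gli1-negative cells of the anterior and posterior gates, all thinned to 8000 UMIs; bars are approximate 95% intervals from the counts and dotted lines mark 2-fold. Ptch1 and Hhip lie to the right in the Gli1 panels and near 0 in the Shh panel, and Gas1 lies to the left in all 3.

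Across the 18 classes Gli1 and Hhip had the most alike patterns among the targets. Gli1 was the gene most like Hhip of all 11747 (r = 0.920), followed by D030068K23Rik, Sfrp2, Zbtb44 and Zranb3. For Gli1 itself Cenpk was first and Hhip second, at 0.920 each, before Nelfe, Zranb3 and St6gal2. The genes most like Ptch1 were Ccdc34 (0.920), Gm5577, C630043F03Rik, Proser3 and Trim59, and its correlation was 0.893 with Gli1 and 0.885 with Hhip but 0.311 with Shh. Ptch1 and Gas1, opposed within the endoderm, anterior and posterior gates, correlated at 0.699 across classes, where both are low in blood cells, cardiomyocytes and endothelium.

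The co-receptors peaked outside the endoderm, the class with most Shh, but Gas1 peaked in the surface ectoderm, which held 3.31 CPM of Shh. Gas1 (ENSMUSG00000052957, chromosome 13, 60174405 to 60177365), a membrane-anchored co-receptor, was at 365, 322, 364, 319, 329 and 346 CPM in the surface ectoderm of libraries 1 to 6, or 338 CPM in all. The Meox1/Tcf15/Pax3 mesoderm (321 CPM) overlapped it, and the epicardium (273 CPM) came after it. The endoderm held 42.2 CPM, with libraries from 37.5 to 49.4, about as low as neurons (44.4 CPM). Cdon (ENSMUSG00000038119, chromosome 9, 35421128 to 35507652), an immunoglobulin-family co-receptor, was highest in cushion mesenchyme at 70.5 CPM, with libraries from 56.5 to 77.8, and next in surface ectoderm at 57.5 CPM. Cushion lay above ectoderm in 6 of 6 libraries, although their ranges overlapped. Cdon in the endoderm, at 24.0 CPM, was near its median class (23.9 CPM). The other Epcam-positive epithelium, with 22.7 CPM of Shh, held Gas1 at 132 CPM and Cdon at 36.6 CPM.

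Smo (ENSMUSG00000001761, chromosome 6, 29735503 to 29761365) was the most even member. The highest class of Smo, the anterior gate at 98.7 CPM, stood 1.24 times above its median class, and the first 4 classes overlapped in their library ranges. Smo was at 50.3 CPM in the endothelium, 38.3 CPM in cardiomyocytes and 7.44 CPM in erythroid cells. Gli2 (ENSMUSG00000048402, chromosome 1, 118834132 to 119053619) was at 69.9 CPM in surface ectoderm, 69.3 CPM in the anterior and 68.2 CPM in the posterior gate, and these 3 did not separate. It was at 3.30 CPM in the endothelium, with libraries from 2.28 to 3.88. Gli3 (ENSMUSG00000021318, chromosome 13, 15463235 to 15730026), mostly a repressor in the absence of ligand, was highest in the Meox1/Tcf15/Pax3 mesoderm at 207 CPM, with libraries from 171 to 263. In the same endothelium Gli3 was at 62.2 CPM, with libraries from 58.3 to 66.6, and in cushion mesenchyme it reached 157 CPM.

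Each class was also set against all other passing cells, with the share of all genes at least 2-fold higher and at least 2-fold lower given beside the members' counts. In cardiomyocytes 5 of 7 members called (Ptch1, Gli2, Gli3, Hhip and Gas1) were at least 2-fold lower and 0 higher, beside 12.7 and 9.61% of 9345 genes, with a median log2 fold of -1.80 over the members and -0.25 over all genes. In the endothelium 5 of 7 (Ptch1, Gli2, Hhip, Gas1 and Cdon) were lower and 0 higher, beside 9.44 and 9.79% of 9418 genes, with medians of -1.56 and -0.02. In neurons 4 of 7 (Gli2, Gli3, Hhip and Gas1) were lower and 0 higher, beside 10.2 and 11.6%. All 7 members called were lower in erythroid cells, beside 66.5% of genes lower and 2.87% higher, and all 7 in the 66 myeloid cells, beside 22.9 and 11.3%.

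In the epithelia single members stood out. In the endoderm 1 of 8 was higher (Shh, beside 6.38% of 9492 genes) and 1 lower (Gas1, beside 5.77%), and in the other Epcam-positive epithelium Shh alone of 8 was higher and 0 were lower, beside 5.49 and 4.97%. In surface ectoderm Gas1 and Cdon, 2 of 7, were higher and 0 lower, beside 6.74 and 5.05%. Among the mesoderm gates, the anterior had 1 of 8 higher (Gli1, beside 2.74% higher and 4.37% lower), the posterior 1 of 8 (Hhip, beside 2.39 and 4.66%) and the Msc/Myf5 mesoderm 2 of 8 (Gli1 and Hhip, beside 3.1 and 5.47%), with 0 members lower in these 3. Gas1 and Gli3 were the 2 of 7 higher in the Meox1/Tcf15/Pax3 mesoderm, beside 2.37 and 6.52%, and Gas1 the 1 of 7 higher in the epicardium, beside 5.05 and 4.7%, again with 0 lower. In cushion mesenchyme Cdon was higher and Hhip and Gas1 were lower, of 7 called, beside 7.36 and 5.62%. Hhip was the 1 of 7 lower in Hox-positive arch crest mesenchyme, beside 8.98% lower and 1.3% higher. Of 7 members called, 0 passed 2-fold either way in Hox-negative arch crest mesenchyme (beside 1.03 and 9.39%), in Sox10/Foxd3 crest (3.62 and 8.43%) and in Acta2/Tagln mesenchyme (3.59 and 4.03%).

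Dhh, a ligand of the same family, was at 10.8 CPM in cushion mesenchyme, with libraries from 9.65 to 14.4, and at 10.47 CPM in endothelium, with libraries from 7.03 to 12.49. These overlapped, and the erythroid level was 3.79 CPM. Ihh did not reach 10 CPM in any class; it was highest in the endoderm, where 5.05 CPM in library 5 stood above the 0.287 to 1.75 CPM of the rest. Of 5 genes for ligand acylation and release 4 reached 10 CPM in some class, and of 10 for signal transduction 6 did. Of 4 cilium genes 3 did.

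Among receptors and surface modulators, all 7 reached 10 CPM. Lrp2, a large endocytic receptor, was highest in surface ectoderm at 42.4 CPM and next in the endoderm at 31.9 CPM. Gpc4, a glypican, was at 129 CPM in surface ectoderm and 60.3 CPM in the endoderm. Gpc5 was highest in Hox-positive arch crest mesenchyme at 126 CPM, with libraries from 75.4 to 199.9. Among 9 other described targets 6 reached 10 CPM. Foxf1 was highest in the posterior gate at 193 CPM, Osr1 there at 106 CPM, Foxf2 in Acta2/Tagln mesenchyme at 15.5 CPM and Foxd1 in Meox1/Tcf15/Pax3 mesoderm at 135 CPM. Library 1, with 21 cells of that class, held 2.83 CPM of Foxd1, and the other libraries with enough cells held 121, 131, 176 and 127 CPM, so library 1 stood apart there too.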

How the data were processed

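Single-cell RNA was counted in 6 libraries. The authors deposited 1 matrix of whole-number UMI counts per gene and barcode. Per the file headers, it is output of Cell Ranger 5.0.0. The mm10 build, CASAVA 1.8 and Seurat 4 are named without a role, per the submitters' processing notes. From these counts, cells with at least 2500 genes and at most 10% mitochondrial UMIs were kept, classed by marker gates, and summed to CPM per class and, with at least 20 cells, per library. No doublet caller was run. Cells in several gates were set aside, and leaving out the 5% of cells with most UMIs was tried. For comparisons of cells with and without a UMI, cells were thinned to 8000 UMIs, which left out 248 passing cells, and a gene was called at 2-fold among those with at least 10 CPM in either set. No p-value was computed, because libraries have no known group and cells are not replicates. Intervals (95%, exact Poisson or Clopper-Pearson) cover counting error only, and a count of 0 allows up to 3 counts. The fold table was tested on simulated cells drawn from a single profile, with genes changed by more than 2-fold. That does not cover sets of mixed cell types or folds near 2. Python 3.11.15, numpy 2.4.6, scipy 1.17.1, pandas 2.3.3 and matplotlib 3.10.9 were used.

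The members, gene lists and gates were chosen with earlier results of these data known. The text names all 9 members, the 8 other pathway genes with the largest ratio of highest to median class among those at 10 CPM or more, the 5 genes most like Shh, Ptch1, Gli1 and Hhip, and the 10 highest and 5 lowest folds in the comparisons by Gli1 and, added after the values were seen, by Shh. Other genes named (Boc, Ihh, Scube1, Foxl1, the gate markers Tbx5, Wnt2, Gata6 and Foxa2 where levels are given, and the genes beside the Epcam-low Shh cells) and the split by Foxf1 were chosen after their values were seen. Promoter windows are from RefSeq (GRCm38.p6) and gene positions from GENCODE M21 (GRCm38).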

Additional observations from a re-analysis of the deposited data

How the results depend on the processing

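Each of 72 quantities was recomputed under up to 15 alternatives, which gave 965 values. Of these, 814 stayed within the counting interval of the reported value (for counts of genes, within 1.5 times) and 151 moved past it. Only a fold of at least 2-fold as reported could count as reversed, by a change of sign, and 0 did. A fold that fell below 2-fold was not counted so. Of the 965 values 16 moved by over 1.5 times, and 11 changed sign, all of folds within 2-fold as reported. Asking for 1 more marker per gate gave Shh in the endoderm at 96.9 CPM (78.9 as reported), Gas1 in the surface ectoderm at 390 CPM (338), 60.2% of Shh UMIs in the endoderm gate (78.4%), a Gas1 log2 fold of -1.04 by Shh (-1.41), and 46 genes at least 2-fold higher and 47 lower by Gli1 in the anterior gate (26 and 22). It also put Hhip in the Msc/Myf5 mesoderm at 31.4 CPM (52.6) and made 322 genes lower by Gli1 in the posterior gate (194). With the first form of the gates, replaced because Trp63, which it used to exclude endoderm, was on in Shh-expressing Foxa cells, these stood at 66.9 CPM, 353 CPM, 41.6% and -1.81, and 170 genes were at least 2-fold higher by Shh (111). Thinning gave 86.1 CPM, 371 CPM and 75.9% for the first 3. Leaving out shared barcodes gave 81.1 CPM, 355 CPM and 79.7%, and leaving out the 5% of cells with most UMIs 81.4 and 351 CPM. Looser cell limits gave 77.4% of Shh UMIs. Without thinning, 12 genes were higher and 14 lower by Gli1 in the anterior and 90 and 101 in the posterior gate, the Ptch1 log2 fold by Gli1 was 0.90 (0.57 as reported), and that of Hhip by Foxf1 in the posterior gate was 5.59 (3.46). Leaving out each library gave Shh in the endoderm between 76.5 and 80.5 CPM, its share between 77.9 and 78.9%, Gas1 between 333 and 343 CPM, Gli1 in the anterior gate between 12.1 and 12.5 CPM, the Gas1 fold between -1.49 and -1.34, the Ptch1 fold between 0.49 and 0.65, and between 102 and 123 genes higher by Shh and 23 and 39 by Gli1. In the posterior gate, 191 genes were at least 2-fold higher by Gli1, and 287, 310 and 343 without library 3, 4 or 5. Libraries 3 to 6 held 18, 19, 29 and 18 of the 93 Gli1-positive cells there. The cause of these and the other moves was not tested. The contrast of streptozotocin with vehicle and its alternatives were not run. No paired analysis was possible because no file pairs libraries with samples. A limit of 2 Gli1 UMIs left under 20 positive cells and gave no value. Depth limits the calls on Gli1, since fewer than 10% of anterior cells showed a UMI after thinning.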
